A study of Mus musculus with 96 samples.

Results

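Transcripts of 7 genes that are hallmarks of the fat cell were followed through 7 mouse organs, none of which is adipose tissue. The genes are Adipoq, Lep, Retn, Cfd, Plin1, Cidec and Ucp1. They were found by gene name among the 56941 gene rows of the deposited count table, where each name matched 1 row. They were chosen as a list with earlier results of these data known. The question was in which organs they appear and which of them rise together from library to library, as adipose tissue attached to a dissected organ would make them do.

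The samples were pieces of whole organs from mice 2 months old. There were 15 libraries each for muscle (skeletal), kidney, small intestine, liver and brain, while heart had 14 and spleen had 7, giving 96. By the labels every organ mixes 4 reprogrammable strains, 4Fj, 4FsB, 4Fk and 4FsA, with WT mice, except spleen, which holds only 4Fj, 4FsA and WT. The strains carry inducible reprogramming factors. Whether any mouse here was induced, and which promoter drives each transgene, is not given in the sources used here. The table names a library by its organ and a running number and gives no genotype, so a group here is an organ, no strain is compared with WT, and libraries are called by that running number. Whether organs came from the same animals is not stated.

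White adipocytes store triglyceride in a single large droplet and release hormones, while brown adipocytes hold many small droplets and burn fat for heat. Among the secreted products, adiponectin (Adipoq) is made almost entirely by adipocytes and sensitises other tissues to insulin. Leptin (Lep) reports the size of the fat store to the brain. Resistin (Retn) is secreted by adipocytes in mice and impairs insulin action. Adipsin (Cfd) is complement factor D, the protease that activates the alternative pathway. Perilipin 1 (Plin1) coats the droplet and gates lipolysis, and CIDEC, also called FSP27, sits where droplets touch and lets them fuse into larger ones. UCP1 uncouples respiration in the mitochondria of brown and beige adipocytes. Fat lies around the kidney, in the mesentery and between muscles, and the pad around the kidney is known to hold brown as well as white adipocytes in mice. CIDEC is also known from the fatty liver, where another transcription start gives a longer isoform. The table counts reads per gene and does not separate the starts.

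The sequences before the starts of 3 members are shown because these members moved together in some organs and apart in others. Each is 250 bases of RefSeq sequence on build GRCm38.p6, read towards the start of transcription. The files use GRCm39, so these positions are not those of the files. RefSeq start windows were found for 7 of 7 members, and Cidec has 2 of them, at chr6:113435761-113436010 and chr6:113434765-113435014 on the minus strand. The Adipoq window is chr16:23146286-23146535 on the plus strand, and the Plin1 window is chr7:79732777-79733026 on the minus strand. Capitals mark CCAAT and TTGCNNAA on either strand, which are spellings of the CCAAT box and of a core recognised by C/EBP factors.
Adipoq: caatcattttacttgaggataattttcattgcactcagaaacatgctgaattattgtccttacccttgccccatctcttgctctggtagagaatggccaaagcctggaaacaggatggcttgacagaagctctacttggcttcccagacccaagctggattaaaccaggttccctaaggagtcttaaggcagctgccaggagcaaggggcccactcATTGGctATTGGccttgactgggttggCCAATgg
Plin1: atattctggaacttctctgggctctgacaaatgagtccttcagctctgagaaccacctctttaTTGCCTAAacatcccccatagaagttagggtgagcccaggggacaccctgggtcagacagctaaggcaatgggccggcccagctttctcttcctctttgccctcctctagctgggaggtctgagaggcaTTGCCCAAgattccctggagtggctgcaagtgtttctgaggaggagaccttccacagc
Cidec, upstream start: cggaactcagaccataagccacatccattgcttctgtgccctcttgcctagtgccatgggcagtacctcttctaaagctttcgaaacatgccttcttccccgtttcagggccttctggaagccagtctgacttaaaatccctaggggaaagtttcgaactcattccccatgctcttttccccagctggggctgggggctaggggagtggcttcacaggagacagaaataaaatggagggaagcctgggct
Cidec, downstream start: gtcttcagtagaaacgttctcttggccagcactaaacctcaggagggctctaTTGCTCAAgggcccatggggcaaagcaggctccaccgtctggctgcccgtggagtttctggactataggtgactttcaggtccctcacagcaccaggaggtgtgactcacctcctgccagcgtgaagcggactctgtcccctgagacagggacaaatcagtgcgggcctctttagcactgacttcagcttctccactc
The Adipoq window held 3 copies of CCAAT, a motif found in 33.85% of the 32851 RefSeq windows. The Plin1 window held 2 copies of TTGCNNAA, which 9.564% of all windows contain. The downstream Cidec window held 1 copy of TTGCNNAA and the upstream window held 0. No marked sites overlap. AGGTCA, the core of many nuclear receptor sites, was in 14.02% of windows and, among the members, only in that of Ucp1. TATAAA was in 12.37% of windows and in 0 of the 8 member windows. A match describes the letters of a window and says nothing of which factor was bound.

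Values are given as CPM, the estimated count of a gene divided by its library's total and scaled to a total of 1000000. Library totals ran from 6624474 to 17882603 with a median of 11317947. The limit that a count of 0 allows, 3 counts, was 0.168 to 0.453 CPM, and it covers counting error only. The organ labels were checked against 4 marker genes each. In every organ but small intestine, the lowest library in the summed level of the organ's own markers exceeded every library of the other organs. The summed level of the kidney markers ranged from 3544 to 13604 CPM in kidney, against at most 19.7 CPM in any library of another organ. Small intestine had a lowest library at 138 CPM of its markers, against up to 542 CPM in liver. Mitochondrially encoded genes took 4.32% to 78.8% of the counts in small intestine, and 2 of its libraries exceeded 50%. In 10 libraries the summed markers of another organ, of adrenal or of pancreas exceeded 100 CPM and 10 times the median of their own organ, a limit set after seeing the data.

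Liver markers, chiefly albumin (Alb), summed to 3753 CPM in spleen library 2, 2399 CPM in muscle library 12, 228 CPM in muscle library 10 and 177 CPM in heart library 9. Pancreatic markers summed to 28323 CPM in small intestine library 4 and 280.4 CPM in spleen library 9. Adrenal cortex markers summed to 1853 CPM in kidney library 11 and 158 CPM in liver library 12. Small intestine library 2 had 203 CPM of spleen and 151 CPM of skeletal muscle markers, and library 14 had 117 CPM of spleen markers. Among these, muscle library 12 was the highest muscle library in Cidec (146 CPM) and Ucp1 (1.76 CPM), small intestine library 2 the highest of its organ in Lep (22.9 CPM), and small intestine library 14 in Cidec (129 CPM). The 10 are called below the libraries that carried other tissue, a name that rests on these marker sums alone. Of the 4 spleen markers, Cd79a, Ms4a1 and Cd3e are also listed as lymphocyte genes. In small intestine they therefore cannot tell spleen from lymphocytes of the organ itself. Where a call given here changed without the 10 libraries, the value without them stands beside it.

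The members split the organs into 2 sets. In skeletal muscle, kidney, spleen and small intestine most libraries held Adipoq, Cfd and Cidec above 1 CPM, and levels within 1 organ spanned a wide range. In heart, liver and brain Adipoq stayed at or near the limit of detection. In whole organs, fewer cells of a type and less RNA per cell cannot be told apart. Between organs next to each other in the order of their medians, 12 of 42 permutation tests over the 7 members had p under 0.05. These tests were two-sided, on log2(CPM + 1), and their p-values are given unadjusted. They treat the libraries of an organ as exchangeable although these mix genotypes.

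**Figure D1:**
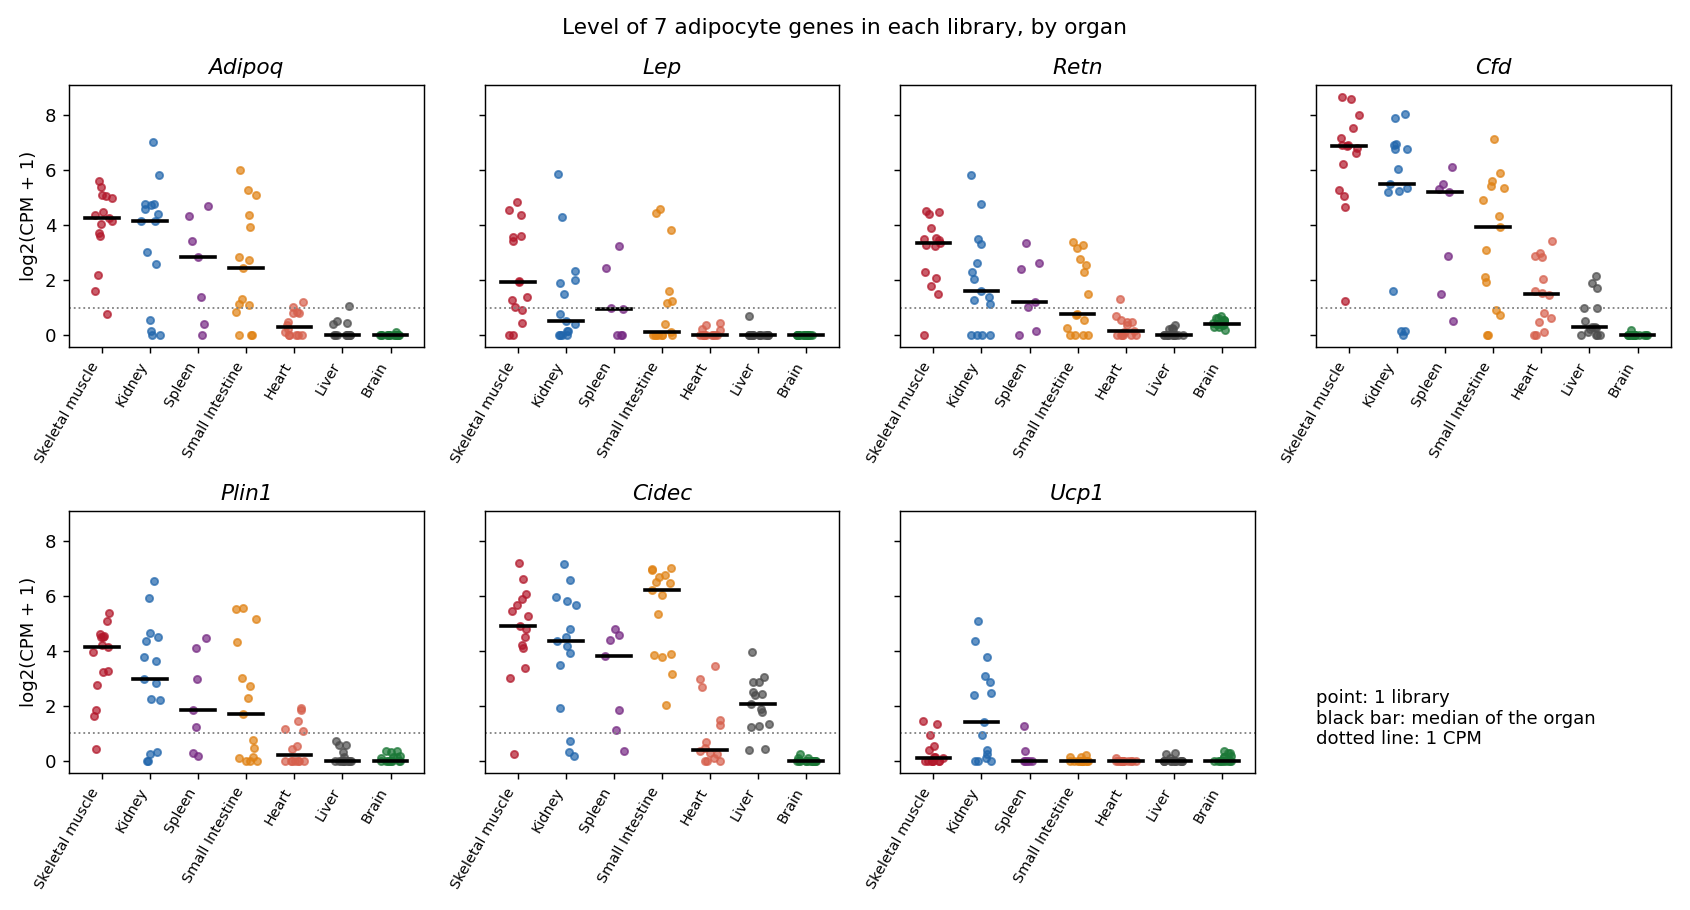
Level of each member as log2(CPM + 1) on the vertical axis, by organ on the horizontal axis, with 1 point per library, a black bar at the organ's median and a dotted line at 1 CPM. Adipoq, Lep, Retn, Cfd and Plin1 reach their high values in muscle, kidney, spleen and small intestine, Cidec stands high in small intestine and is present in liver, and Ucp1 exceeds 2 CPM in kidney alone.

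Adipoq, the adiponectin gene, ranged in skeletal muscle from 0.713 CPM over a median of 18.1 CPM to 47.5 CPM, and 14 of 15 muscle libraries had at least 1 CPM. In kidney it ranged from 0 over a median of 16.9 CPM to 128 CPM in library 1, and the next highest kidney library, number 13, had 55.9 CPM. In spleen it ranged from 0 over a median of 6.19 CPM to 24.8 CPM. In small intestine it ranged from 0 over a median of 4.40 CPM to 62.7 CPM. These 4 organs overlapped widely. Mean log2(CPM + 1) was 3.95 ± 1.41 in muscle and 3.39 ± 2.25 in kidney (SD, n = 15 each), a difference of 0.57 with permutation p = 0.414. Kidney over spleen and spleen over small intestine did not pass 0.05 either. The step that did was from small intestine to heart. Small intestine averaged 2.47 ± 2.05 and heart 0.42 ± 0.44 (SD, n = 15 and 14), a difference of 2.05, about the SD within small intestine, with permutation p = 0.00082.

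Below that step Adipoq was scarce. Heart reached at most 1.28 CPM, with 2 of 14 libraries at 1 CPM or more. Liver reached 1.10 CPM in 1 library, number 14, and 11 of its 15 libraries had a count of 0. Among the 15 brain libraries a single count was recorded, in library 8. Heart over liver (difference 0.26, permutation p = 0.0801) and liver over brain (difference 0.15, permutation p = 0.1003) did not pass 0.05. Without the 10 libraries that carried other tissue, heart over liver had permutation p = 0.0415.

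Lep, the leptin gene, kept the same divide with lower values. It ranged from 0 over a median of 2.83 CPM to 27.6 CPM in muscle, from 0 over 0.929 to 8.42 CPM in spleen, from 0 over 0.437 to 57.1 CPM in kidney, and from 0 over 0.0926 to 22.9 CPM in small intestine. Its median was therefore under the floor of a count of 0 in small intestine, and 7 of those 15 libraries had no count. Heart, liver and brain had 10 of 14, 14 of 15 and 15 of 15 libraries without a Lep count. The step from small intestine to heart, 1.16 ± 1.71 and 0.09 ± 0.15 in log2(CPM + 1), was the only neighbouring step of Lep past 0.05 (permutation p = 0.0160).

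Retn, the resistin gene, ranged from 0 over a median of 9.20 CPM to 21.8 CPM in muscle, from 0 over 2.03 to 55.6 CPM in kidney, from 0 over 1.27 to 9.16 CPM in spleen, and from 0 over 0.713 to 9.50 CPM in small intestine. Every brain library held some Retn, between 0.139 and 0.601 CPM, or 2 to 7 counts. These values lie around the floor of 3 counts. Small intestine exceeded brain by 0.97 in log2(CPM + 1) (permutation p = 0.00954), and heart exceeded liver by 0.22 (permutation p = 0.0299). The small intestine call was lost at a pseudocount of 0.1 CPM (permutation p = 0.0875). The resistin-like paralogs Retnla and Retnlg have rows of their own: Retnla ranged from 3.59 to 22.9 CPM in muscle, and Retnlg reached 48.5 CPM in spleen. How reads shared by these paralogs were assigned is not given in the sources used here.

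Cfd, adipsin, had the same 4 organs on top. It ranged from 1.34 over a median of 116 CPM to 404 CPM in muscle, from 0 over 44.2 to 265 CPM in kidney, from 0.413 over 36.2 to 67.4 CPM in spleen, and from 0 over 14.1 to 140 CPM in small intestine. It was also detected further down the order, at up to 9.78 CPM in heart and 3.41 CPM in liver, while 14 of 15 brain libraries had a count of 0. All 3 lower steps passed 0.05: small intestine over heart by 1.94 (permutation p = 0.0110), heart over liver by 0.86 (permutation p = 0.0279), and liver over brain by 0.62 (permutation p = 0.00015).

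Plin1, the droplet coat protein of adipocytes, had the organs in the order of Adipoq at the top. It ranged from 0.356 over a median of 16.7 CPM to 41.0 CPM in muscle, from 0 over 6.77 to 91.6 CPM in kidney, from 0.138 over 2.57 to 21.1 CPM in spleen, and from 0 over 2.22 to 45.7 CPM in small intestine. Heart reached 2.80 CPM, with 5 of 14 libraries at 1 CPM or more, and liver and brain stayed under 1 CPM. Small intestine exceeded heart by 1.51 (permutation p = 0.0193) and heart exceeded liver by 0.45 (permutation p = 0.0346). Heart over liver had permutation p = 0.0737 at a pseudocount of 0.1 CPM.

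Cidec, the droplet fusion gene, had another order. Small intestine came first, from 3.05 over a median of 72.4 CPM to 129 CPM, with all 15 libraries at 1 CPM or more. Muscle ranged from 0.178 over 29.1 to 146 CPM, kidney from 0.117 over 19.3 to 141 CPM, and spleen from 0.275 over 13.02 to 26.4 CPM. Liver followed, from 0.303 over 3.21 to 14.6 CPM, ahead of heart with a median of 0.318 CPM and a highest value of 9.88 CPM. Liver exceeded heart by 1.03 in log2(CPM + 1) (permutation p = 0.0193), and heart exceeded brain by 0.97 (permutation p = 6e-05). Spleen over liver passed 0.05 without the libraries that carried other tissue (exact permutation p = 0.0288) and not with them (exact permutation p = 0.124).

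Ucp1, the thermogenic uncoupler, was a kidney signal. It ranged from 0 over a median of 1.66 CPM to 32.6 CPM in kidney, where 8 of 15 libraries had at least 1 CPM. Muscle reached 1.76 CPM in library 12 and 1.54 CPM in library 15, and its other libraries stayed under 1 CPM. Kidney averaged 1.81 ± 1.74 and muscle 0.33 ± 0.51 in log2(CPM + 1) (SD, n = 15 each), a difference of 1.47 with permutation p = 0.00322. Without the libraries that carried other tissue, muscle library 12 among them, the difference was 1.50 with permutation p = 0.0065. Spleen had 1.38 CPM in library 8 and at most 0.273 CPM in the others. Liver, small intestine, heart and brain did not exceed 0.265 CPM, or 3 counts, in any library.

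TMM scaling (a library scaling that trims extreme genes) moved 6 of the upper steps past 0.05, all with muscle as the higher organ. Muscle over kidney then had permutation p = 0.0329 for Adipoq, 0.00412 for Retn, 0.00544 for Cfd, 0.0214 for Plin1 and 0.0229 for Cidec, and muscle over spleen had 0.0239 for Lep. On CPM without mitochondrially encoded genes, Adipoq in heart over liver came to permutation p = 0.0477, and the median of Adipoq was higher in kidney than in muscle.

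**Figure D2:**
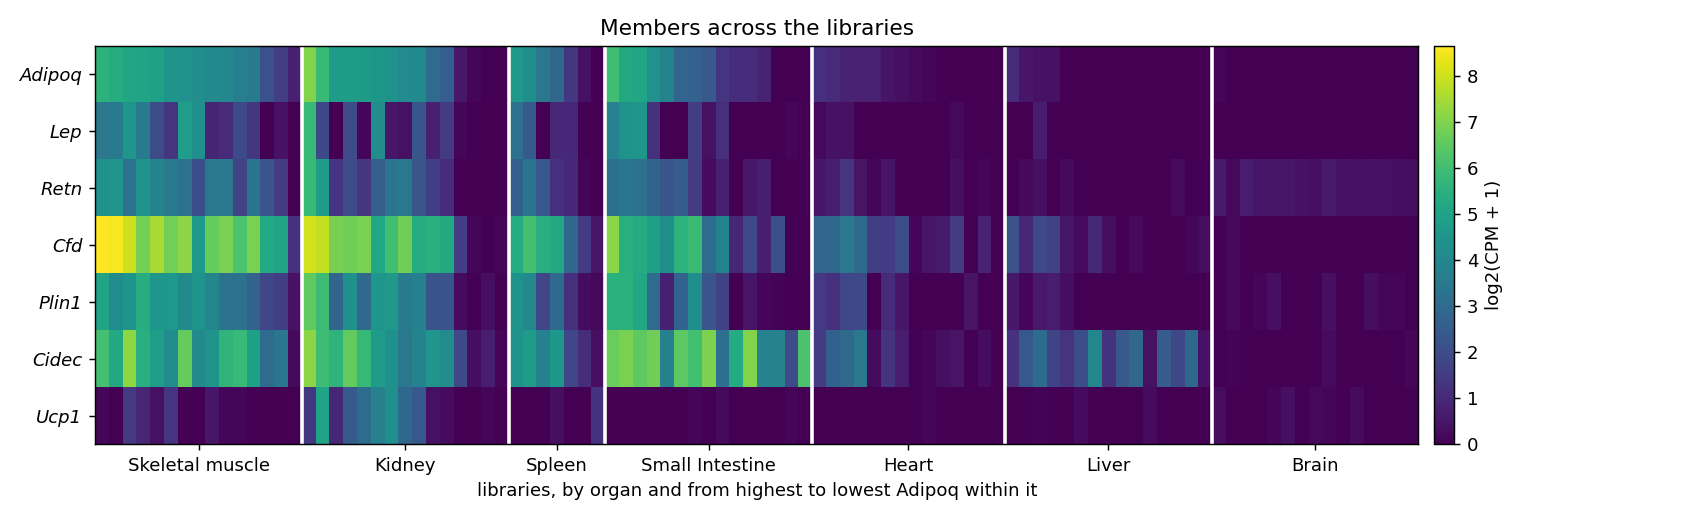
Heat map of log2(CPM + 1), with the 7 members in rows and the 96 libraries in columns, grouped by organ and ordered within an organ from the highest to the lowest Adipoq; brighter colours are higher levels. Columns dark in Adipoq are mostly dark in Retn, Cfd and Plin1 as well, except for Cidec in small intestine and liver.

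Which members rose together was read from rank correlations (Spearman rho) over the libraries of 1 organ, for members at 1 CPM or more in at least 3 libraries. Over the 7 organs 70 pairs were computed, with permutation p-values given unadjusted. In small intestine 7 of 15 pairs reached a rho of 0.8, and all 7 lay among Adipoq, Lep, Retn, Cfd and Plin1. In muscle 2 of 15 pairs did, in spleen 11 of 15, in heart 2 of 3 and in liver 0 of 1. Brain had no member at that level. Permutation p was under 0.05 for 11 of the 15 pairs in small intestine, 12 in muscle and 11 in spleen, and for 3 of 3 in heart. Without the libraries that carried other tissue, Lep with Cfd (rho 0.509, permutation p = 0.0781) and Cfd with Plin1 (rho 0.527, permutation p = 0.0667) no longer passed 0.05 in muscle, while Retn with Cidec did (rho 0.643, permutation p = 0.0210). In small intestine Cidec then passed 0.05 with Retn (rho 0.662, permutation p = 0.0224) and Cfd (rho 0.585, permutation p = 0.0490). Spleen keeps 5 libraries without them, too few to test its pairs again. Leaving out the library highest in Adipoq, which is library 4 in both organs, left 1 pair in muscle and 1 in heart at a rho of 0.8.

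Kidney libraries fell into 2 clusters in Adipoq. Libraries 4, 5, 8 and 9 had at most 0.477 CPM, and the other 11 had at least 4.99 CPM, a gap of 2.02 in log2(CPM + 1). The 4 low libraries were low in every member, with at most 0.0954 CPM of Lep, 0 of Retn, 2.00 CPM of Cfd, 0.248 CPM of Plin1, 2.77 CPM of Cidec and 0.0825 CPM of Ucp1. Counted over all 15 libraries, 7 of 21 pairs reached a rho of 0.8, while within the 11 libraries above the gap 3 of 21 did. Permutation p was under 0.05 for 20 of 21 pairs over all 15 libraries and for 6 of 21 within the 11. Since the libraries fall into these clusters, kidney pairs are described within the 11, a choice made after seeing the data, and the value over all 15 is added where the call differs.

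**Figure D3:**
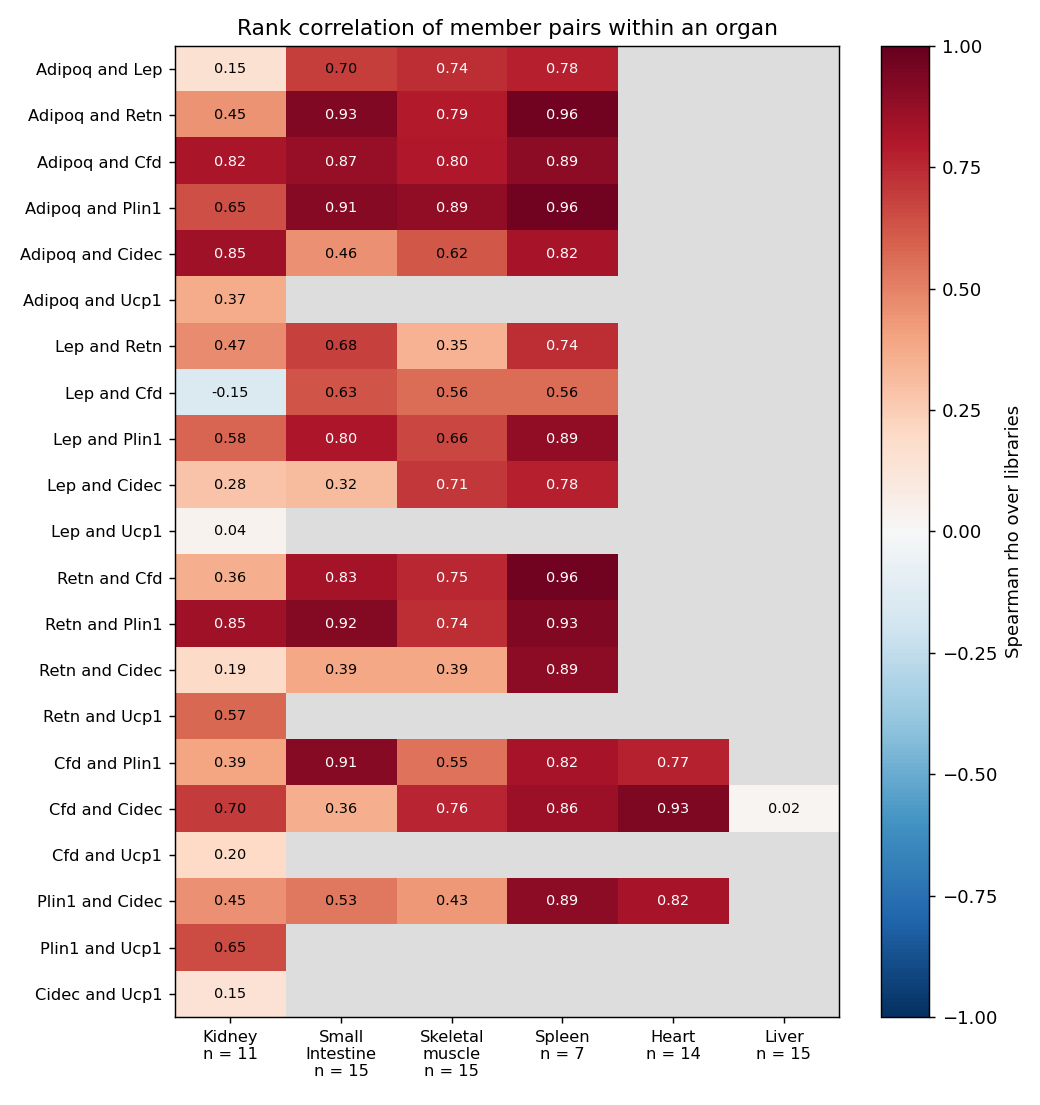
Spearman rho of each pair of members (rows) over the libraries of an organ (columns), with kidney restricted to the 11 libraries above its gap in Adipoq; grey marks pairs that were not computed. Adipoq and Plin1 have a rho of 0.65 to 0.96 in the 4 organs with Adipoq, while pairs with Cidec have 0.32 to 0.53 in small intestine. In kidney pairs with Lep range from -0.15 to 0.58 and pairs with Ucp1 from 0.04 to 0.65, each highest with Plin1.

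Adipoq and Plin1 rose together in all 4 organs with Adipoq. Their rho was 0.645 in the 11 kidney libraries (Pearson r 0.868 on log2(CPM + 1), permutation p = 0.0370 for rho and 0.00043 for r), 0.906 in small intestine (r 0.879, permutation p = 4e-05 and 9e-05), 0.886 in muscle (r 0.957, permutation p = 5e-05 and 1e-05) and 0.964 in spleen (r 0.948, exact permutation p = 0.00278 for both). The p of 1e-05 is the smallest the 100000 resamples can give. Without the 2 libraries farthest from the median of Adipoq, r was 0.734, 0.801, 0.897 and 0.882 in that order of organs. Here and below, the spleen value without the 2 farthest rests on 5 libraries, too few to lean on.

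Adipoq and Cfd also moved together. Their rho was 0.818 in the 11 kidney libraries (permutation p = 0.00345; r 0.825, permutation p = 0.00103), 0.868 in small intestine (permutation p = 9e-05; r 0.873, permutation p = 0.00011), 0.804 in muscle (permutation p = 0.00053; r 0.871, permutation p = 3e-05) and 0.893 in spleen (exact permutation p = 0.0123; r 0.954, exact permutation p = 0.00198). Without the 2 farthest libraries r was 0.713, 0.830, 0.745 and 0.866. Adipoq and Retn had a rho of 0.926 in small intestine (r 0.941, permutation p = 1e-05 for both), 0.793 in muscle (permutation p = 0.00071; r 0.884, permutation p = 1e-05) and 0.964 in spleen (exact permutation p = 0.00278; r 0.951, exact permutation p = 0.00317). In the 11 kidney libraries their rho was 0.445 (permutation p = 0.174) and r was 0.777 (permutation p = 0.00484), which fell to 0.482 without the 2 farthest libraries and so rests on them. Over all 15 kidney libraries rho was 0.772 (permutation p = 0.00111). Within the 11, Retn rose with Plin1, with a rho of 0.845 (permutation p = 0.0018; r 0.912, permutation p = 0.00022; r 0.736 without the 2 farthest).

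Lep with Adipoq did not pass 0.05 in the 11 kidney libraries or, by rho, in spleen. Over all 15 kidney libraries, both clusters included, it passed by both measures (rho 0.575, permutation p = 0.0275; r 0.634, permutation p = 0.00945). Its rho with Adipoq was 0.736 in muscle (permutation p = 0.0024; r 0.731, permutation p = 0.00136), 0.695 in small intestine (permutation p = 0.00592; r 0.796, permutation p = 0.00033), 0.778 in spleen (exact permutation p = 0.0571; r 0.780, exact permutation p = 0.0381) and 0.155 in the 11 kidney libraries (permutation p = 0.654; r 0.558, permutation p = 0.0786). In kidney 3 libraries had nearly equal Adipoq and unequal Lep. Adipoq was 25.5 CPM in library 10, 26.4 CPM in library 11 and 26.4 CPM in library 12, while Lep was 0.106, 2.98 and 0 CPM in the same libraries. The count of 0 in library 12 allows up to 0.271 CPM. Kidney library 3 had less Adipoq, 23.3 CPM, and 18.6 CPM of Lep. In muscle, library 11 had 27.6 CPM of Lep beside 19.8 CPM of Adipoq, and library 4, the highest in Adipoq, had 9.76 CPM of Lep beside 47.5 CPM.

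Cidec was detected in every small intestine library, whether or not Adipoq was. The rho of Cidec with Adipoq was 0.459 (permutation p = 0.0886; r 0.539, permutation p = 0.0386; r 0.451 without the 2 farthest) in small intestine, 0.845 in the 11 kidney libraries (permutation p = 0.00206; r 0.754, permutation p = 0.00588; r 0.604 without the 2 farthest), 0.621 in muscle (permutation p = 0.0157; r 0.813, permutation p = 0.00032; r 0.579) and 0.821 in spleen (exact permutation p = 0.0341; r 0.946, exact permutation p = 0.00357; r 0.831). Without the 3 small intestine libraries flagged by markers of other tissue, the rho there was 0.627 (permutation p = 0.0330; r 0.627, permutation p = 0.0310; n = 12), so the call depends on them. Library 14, 1 of the 3, was flagged by the spleen markers only, most of which are lymphocyte genes. Whether these correlations differ between organs was not tested. In the 4 small intestine libraries with Adipoq under 1 CPM, Cidec was 3.05 to 72.4 CPM. Library 15 had 72.4 CPM of Cidec and a count of 0 for Adipoq, Lep, Retn, Cfd and Plin1. Library 14 had 129 CPM of Cidec, the highest of the organ, beside 1.13 CPM of Adipoq and 0.397 CPM of Plin1.

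**Figure D4:**
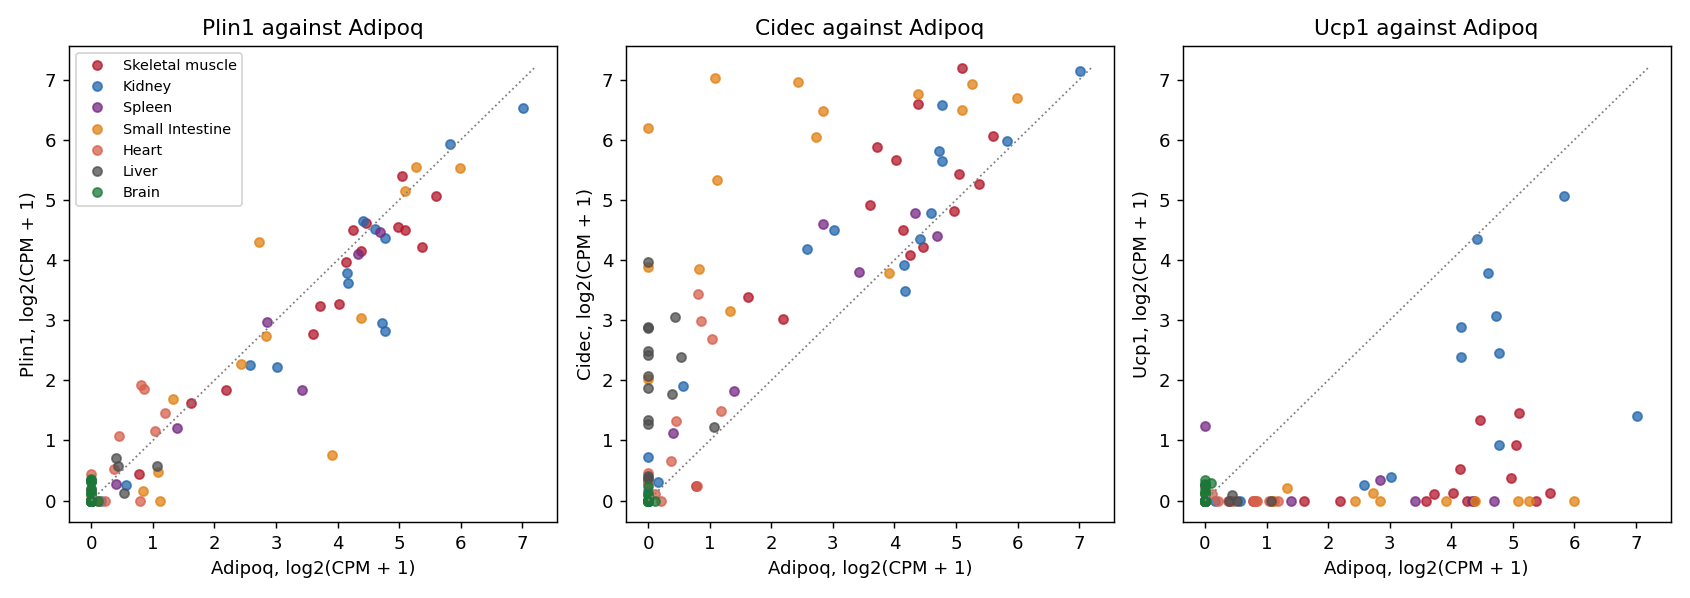
Plin1, Cidec and Ucp1 (vertical axes) against Adipoq (horizontal axes), all as log2(CPM + 1), with 1 point per library coloured by organ and a dotted line of equal values. Plin1 lies near the line in most libraries, Cidec of small intestine and liver rises far above it at low Adipoq, and Ucp1 leaves the axis mainly in kidney.

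Liver showed Cidec without the rest of the group. Of its 14 libraries with Adipoq under 1 CPM, 12 had at least 1 CPM of Cidec, with a median of 3.72 CPM and up to 14.6 CPM. Cidec and Cfd, the only liver pair that could be computed, had a rho of 0.02 (permutation p = 0.946; r 0.127, permutation p = 0.652). The liver library with the most Cidec was number 3, with no count of Adipoq, Lep, Retn, Plin1 or Ucp1. That library was also the highest of the liver libraries in Cidea, another CIDE gene, at 14.7 CPM against at most 1.56 CPM in the others, in Pparg, the nuclear receptor that drives adipocyte formation, at 13.2 CPM, and in the summed fatty acid synthesis genes, at 55440.2 CPM against a median of 5083 CPM. These values were singled out after being seen.

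In heart part of the group was seen at low levels: Cfd, Plin1 and Cidec rose together. Cfd and Cidec had a rho of 0.935 (permutation p = 2e-05; r 0.887, permutation p = 1e-05), Plin1 and Cidec 0.823 (permutation p = 0.00068; r 0.928, permutation p = 2e-05), and Cfd and Plin1 0.773 (permutation p = 0.00204; r 0.845, permutation p = 0.00026). Heart libraries 6, 12 and 10 held the most Cidec. Library 6 had 9.78 CPM of Cfd, 2.62 CPM of Plin1, 6.96 CPM of Cidec, 0.807 CPM of Adipoq and 1.51 CPM of Retn. Library 12 had 6.99 CPM of Cfd, 2.80 CPM of Plin1, 9.88 CPM of Cidec and 0.746 CPM of Adipoq. Library 10 had 6.38 CPM of Cfd, 1.22 CPM of Plin1, 5.42 CPM of Cidec and 1.05 CPM of Adipoq. Library 15 had a count of 0 for all 7 members.

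The balance of the members was then compared between organs as log2(CPM + 1) of a member minus that of Adipoq in the same library, which does not set the level of 1 gene against another but the same pair in different organs. The comparison was added after seeing the data and comprised 36 tests among small intestine, kidney, muscle and spleen, of which 7 had permutation p under 0.05. All 15 kidney libraries entered, including the 4 below the gap in Adipoq. Where both genes are near 0, the pseudocount of 1 CPM keeps the balance near 0. The kidney balance was not tested within the 11 libraries above the gap. Cidec beside Adipoq averaged 2.98 ± 1.81 in small intestine, against 0.58 ± 0.75 in kidney (permutation p = 3e-05), 0.80 ± 0.99 in muscle (permutation p = 0.00026) and 0.55 ± 0.61 in spleen (exact permutation p = 0.00298; SD, n = 15, 15, 15 and 7). The differences were 2.40, 2.18 and 2.43. Among kidney, muscle and spleen the Cidec balance differed by at most 0.26 in size, with permutation p of 0.49 or more.

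Cfd beside Adipoq was highest in muscle. It averaged 0.96 ± 1.14 in small intestine and 2.48 ± 0.93 in muscle, a difference of -1.53 (permutation p = 0.00081). It averaged 1.45 ± 0.95 in kidney and 2.48 ± 0.93 in muscle, a difference of -1.03 (permutation p = 0.00605). Muscle exceeded spleen, at 1.42 ± 0.71, by 1.07 (exact permutation p = 0.0150), a call lost at a pseudocount of 0.1 CPM (difference 0.66, exact permutation p = 0.110) and without the libraries that carried other tissue (difference 0.98, exact permutation p = 0.0697). Ucp1 beside Adipoq averaged -1.58 ± 1.60 in kidney and -3.62 ± 1.29 in muscle, a difference of 2.04 (permutation p = 0.00113). In muscle Ucp1 had a median of 0.0786 CPM and a count of 0 in 7 of 15 libraries. Only 2 muscle libraries had both genes at 1 CPM or more, so the muscle balance mostly follows the level of Adipoq. The kidney averages of Cfd and Ucp1 include the 4 libraries below the gap in Adipoq. For Lep, Retn and Plin1 0 of 18 tests had p under 0.05. The Plin1 balance lay between -0.44 and -0.29 in the 4 organs, with differences of at most 0.15 in size and permutation p of 0.608 or more.

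**Figure D5:**
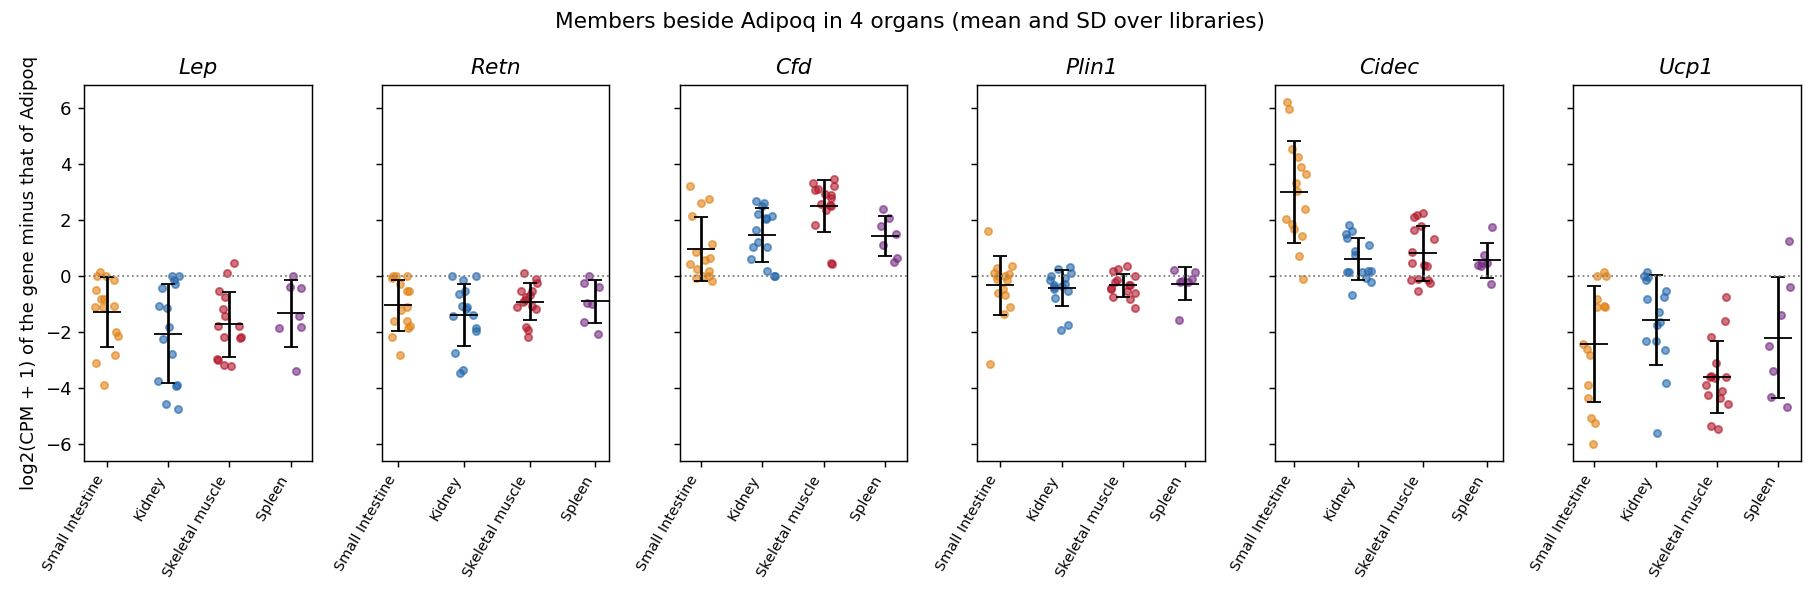
Log2(CPM + 1) of each of 6 members minus that of Adipoq in the same library (vertical axis), in small intestine, kidney, skeletal muscle and spleen (horizontal axis), with 1 point per library and the mean with its SD in black. Cidec averages 2.98 in small intestine and 0.55 to 0.80 in the other 3 organs, Cfd is highest in muscle, and Plin1 averages between -0.44 and -0.29 throughout.

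As plain ratios, in libraries where both genes had at least 1 CPM, Cidec was 0.903 to 115 times Adipoq in small intestine (median 5.45 over 11 libraries), 0.599 to 3.59 times in kidney (median 1.14 over 11), 0.827 to 4.86 times in muscle (median 1.69 over 14) and 0.816 to 3.74 times in spleen (median 1.38 over 5). The Plin1 to Adipoq ratio had medians of 0.983, 0.741, 0.732 and 0.840 in the same order. Small intestine library 10 stood apart in Plin1, at 3.36 times Adipoq, with 18.8 CPM of Plin1 beside 5.59 CPM of Adipoq.

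Ucp1 in kidney passed 0.05 by rho with all 6 other members over the 15 libraries, with rho from 0.566 for Lep to 0.861 for Plin1, and with 1 of the 6 within the 11. With Adipoq its rho over the 15 was 0.732 (permutation p = 0.0029; r 0.707, permutation p = 0.00387). Within the 11 libraries above the gap its rho was 0.373 with Adipoq (permutation p = 0.260; r 0.403, permutation p = 0.223), 0.655 with Plin1 (permutation p = 0.0348; r 0.573, permutation p = 0.0683), 0.573 with Retn (permutation p = 0.0720; r 0.439, permutation p = 0.180), 0.145 with Cidec (permutation p = 0.673; r 0.0264, permutation p = 0.937) and 0.0364 with Lep (permutation p = 0.925; r 0.0259, permutation p = 0.941). Library 1 held the most Adipoq, 128 CPM, and 1.66 CPM of Ucp1, a ratio of 0.0129. Library 14 held 20.3 CPM of Adipoq and 19.5 CPM of Ucp1, a ratio of 0.961. Library 13 had the most Ucp1, 32.6 CPM. Without the 2 libraries farthest from the median of the other gene, r within the 11 was 0.682 with Adipoq, 0.869 with Plin1, 0.740 with Retn, 0.250 with Cfd, 0.245 with Cidec and 0.126 with Lep.

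Genes listed as brown adipocyte markers were read beside Ucp1. Over all 15 kidney libraries 55 of 14640 genes (0.376%) had a rho of 0.8 or more with Ucp1, among them 3 of the 8 brown markers tested: Cidea, Cox8b, a cytochrome oxidase subunit, and Slc36a2, an amino acid transporter. The same markers followed Adipoq as closely, with a median rho of 0.740 for either gene. With Adipoq 2 of the 8, Prdm16 and Slc36a2, reached 0.8, beside 1.86% of all genes. Slc36a2 had a rho of 0.914 with Adipoq and 0.847 with Ucp1. Within the 11 libraries above the gap 27 of 14782 genes (0.183%) and 0 of 8 brown markers reached a rho of 0.8 with Ucp1. The brown markers' median rho with Ucp1 there was 0.564, beside 0.0636 for all genes tested. Other lists stood as high, at 0.632 for 4 mesothelial markers and 0.609 for 9 fatty acid synthesis genes. Over the 15 libraries these 2 lists had 0.796 and 0.674, beside 0.740 for the brown markers and 0.186 for all genes tested. With Adipoq the brown markers had a median rho of 0.450 within the 11, beside 0.291 for all genes tested. Cidea reached 49.3 CPM, Cox8b 12.5 CPM, Slc36a2 16.3 CPM and Otop1 3.32 CPM in kidney, each highest in library 13, the library highest in Ucp1. They are examples from the 12 listed brown markers, and Otop1 was not among the 8 tested. Of those 8, Cox7a1 had a rho of 0.197 with Ucp1 over the 15 libraries and 0.0364 within the 11. Ppargc1a had 0.358 and 0.145. Several of the brown markers are not tied to Ucp1 elsewhere. In heart, where 13 of 14 libraries had no Ucp1 count, Cidea was 15.98 to 34.4 CPM and Cox8b 126 to 439 CPM in every library. Cox8b was 75.1 to 300 CPM in muscle.

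The genes most like Ucp1 over the 15 kidney libraries, by rho, were Epor, Dlgap1, Atp10b, Fcgbp, Upk3b, Sbspon, Cox8b, Kcnk2, Cidea and the member Plin1. Upk3b is a mesothelial marker. Within the 11 they were Sbspon, Klhl14, Atp10b, Tlcd3a, Ttc12, Parp8, Wnt5a, Fndc9, R3hdm1 and Otub2.

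Likeness to Adipoq was scanned over all genes with a mean of at least 1 CPM. The genes at a rho of 0.8 or more were 30 of 14407 (0.208%) in small intestine, 66 of 12329 (0.535%) in muscle, 226 of 15513 (1.46%) over the 7 spleen libraries, 272 of 14640 (1.86%) over all 15 kidney libraries and 317 of 14782 (2.14%) within the 11. Against those shares, Retn, Plin1 and Cfd were among the 30 genes in small intestine, Plin1 and Cfd among the 66 in muscle, Plin1, Retn, Cfd and Cidec among the 226 in spleen, and Cfd and Cidec among the 317 in the 11 kidney libraries.

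The 10 named genes most like Adipoq in small intestine were Car3, Scd1, Lpl, Retn, Aldh6a1, Trarg1, Slc7a10, Plin1, Cdo1 and Fmod, with rho from 0.968 to 0.872. Car3 is a carbonic anhydrase abundant in fat and muscle, Scd1 desaturates fatty acids, Lpl is lipoprotein lipase and Trarg1 regulates trafficking of the glucose transporter GLUT4. In muscle they were Lipe, Slc1a5, Cebpa, H2-Q10, Tlcd1, Gstz1, Cd1d1, Phgdh, Trarg1 and Bscl2, with rho from 0.979 to 0.900. Lipe is hormone-sensitive lipase, Cebpa an adipogenic transcription factor and Bscl2 the droplet protein seipin. Over all 15 kidney libraries they were Acvr1c, Aox1, Cidec, Postn, Cfd, Fchsd1, Mrap, Serpina3c, Slc36a2 and Ankef1, and within the 11 they were Fam110b, Bnip2, Git2, Fchsd1, Aox1, Cdk17, Pus7l, Stom, Acvr1c and Gsto1. Acvr1c, the receptor ALK7, restrains lipolysis in adipocytes, and Mrap carries the receptor for ACTH. Over the 7 spleen libraries they were Ogfod1, Ddx10, Vmn2r84, Dsel, Rc3h1, Plin1, Retn, Helz, Ccser2 and Igfbp6, where ties at a rho of 0.964 and 0.929 are frequent because so few libraries were ranked.

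Of 15 other adipocyte genes, 5 reached a rho of 0.8 with Adipoq over the 15 kidney libraries (Fabp4, Pparg, Acvr1c, Adig and Mrap), 2 within the 11 (Acvr1c and Mrap), 5 of 13 tested in small intestine (Fabp4, Lpl, Trarg1, Slc7a10 and Car3), 5 of 15 in muscle (Cebpa, Lipe, Adrb3, Trarg1 and Mrap) and 2 of 13 in spleen (Lpl and Car3). Their median rho was 0.582 within the 11 kidney libraries, 0.720 in small intestine, 0.621 in muscle and 0.468 in spleen, beside 0.291, 0.244, 0.375 and 0.108 for all genes tested. Many of these genes were abundant where Adipoq was not. Fabp4, a fatty acid carrier also made by capillary endothelium, was 214 to 1078 CPM in heart, and Plin4 was 69.0 to 760 CPM there. Adrb3, the beta-3 adrenergic receptor, reached 79.1 CPM in liver with Adipoq at most at 1.10 CPM. Adig, a small adipocyte protein gene, stayed under 1 CPM in heart, liver and brain, as did Adipoq in nearly all of their libraries.

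Markers of other tissue moved with Adipoq in some organs. In kidney the summed level of 6 mesothelial markers had a rho of 0.863 with Adipoq over the 15 libraries and 0.782 within the 11, a description only, and ranged from 6.10 over 23.5 to 44.6 CPM. Of the 6 markers 4 had a median of at least 1 CPM, and of the 4 that could be tested 1, Msln, reached a rho of 0.8, both over the 15 libraries and within the 11. The median rho of those 4 markers was 0.719 over the 15 and 0.459 within the 11. The mesothelial gene Msln ranged from 0 over 1.98 to 17.2 CPM in kidney. The 6 adipose stroma genes summed to 71.5 to 492 CPM in kidney, highest in library 1, the library highest in Adipoq. Their sum had a rho of 0.547 with Adipoq over the 15 libraries and 0.473 within the 11. Gene by gene their median rho was 0.276 over the 15 and 0.255 within the 11, beside 0.302 and 0.291 for all genes tested. Summed endothelial markers had a rho of 0.642 with Adipoq over the 15 kidney libraries and 0.600 within the 11. The 4 brain markers, of which only the myelin gene Mbp had a median of 1 CPM or more in kidney, had 0.783 and 0.709. Summed peripheral nerve markers had 0.611 and 0.718, and summed adrenal cortex markers 0.459 and 0.718. Of these, 1 of 4 nerve and 1 of 7 adrenal cortex markers had a median of 1 CPM or more in kidney. In small intestine the summed markers of skeletal muscle, heart and mesothelium had a rho of 0.677, 0.649 and 0.584 with Adipoq. Only 1 of the 4 heart markers, Tnnt2, could be tested by itself there. Of the 4 skeletal muscle markers 3 could be, with rho from -0.104 to 0.688 and a median of 0.237. The 6 mesothelial markers had a median rho of 0.589, beside 0.244 for all genes tested. In spleen, where small intestine markers summed to at most 7.98 CPM, their rho with Adipoq was -0.786 over 7 libraries. Of the 6 mesothelial markers 5 could be tested in spleen, with a median rho of 0.679. The other adipocyte genes had 0.468 there and all genes tested 0.108. Summed, the mesothelial markers had a rho of 0.536 and the other adipocyte genes 0.571 with Adipoq in spleen. The share of mitochondrially encoded counts had a rho of -0.600 with Adipoq in muscle, and the total count had a rho of -0.505 with it in small intestine. The part of these quantities in the results was not tested. Values without the libraries that carried other tissue are given beside the calls they change and among the settings below.

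Receptors and complement partners of the secreted members were read as a list of 8. Each organ had at least 7 of the 8 at a median of 1 CPM or more, including organs in which the secreted members were near 0. Of the 8, 0 reached a rho of 0.8 with Adipoq in the 15 kidney libraries or in small intestine. Since 1.86% and 0.208% of all genes did, 0 of 8 does not set the list apart. The median rho of the 8 was 0.534 in kidney and 0.452 in small intestine, beside 0.302 and 0.244 for all genes tested. Their sum had a rho of 0.581 and 0.771 with Adipoq in these 2 organs. Their summed level ran from 2970 to 13109.8 CPM in liver, which makes most circulating complement, and from 186 to 321 CPM in brain.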

How the data were processed

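Per the labels' protocols, TRIzol was used to extract total RNA from frozen pieces of organ, and a company made and sequenced the cDNA libraries. The authors deposited estimated counts per gene, of which 26.8% among the non-zero ones are not whole (tolerance 1e-06). A second deposited table of normalised signal differs from these by more than a factor per library and served only as an alternative. Build GRCm39 and DESeq2 are named in the submitters' processing notes. For the aligner, the counter, the annotation and the use of strand nothing is given in the sources used here, so paralogs and overlapping or antisense genes are uncertain.

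Column names hold an organ code and a running number, so libraries were grouped by organ only and 0 columns were left unmapped. The members and lists were chosen with earlier results of these data known. For that reason the Benjamini-Hochberg adjustment over members that had been planned is not given, and p-values stand unadjusted beside the number of tests. The labels do not say whether samples are separate animals, so p-values measure only the spread between libraries. CPM used the column total, in which the 310 rows without a gene name held at most 0.113%. Levels were compared on log2(CPM + 1) by two-sided permutation tests with 100000 resamples, or exact ones where a group had fewer than 10 libraries. Pearson r and Spearman rho had permutation p-values over pairings. Named genes are the 7 members, examples from the 23 lists (133 genes, all matched), and the 10 genes of highest rho, leaving out predicted genes; any other was chosen after its values were seen. The likeness step was tested on simulated data from the 15 kidney libraries with 14657 genes, where 100% of 200 genes made alike were recovered and 0.00692% of the others were called. In the real kidney libraries 1.86% of genes were called, so the simulated rate is not a rate of false calls for the real scan. Among 637 pairs of libraries within an organ 0 were identical. Totals set the precision, with a floor of 0.168 to 0.453 CPM per library. Alternatives were another pseudocount, TMM scaling (edgeR 4.0.16 in R 4.3.3, on rounded counts), CPM without mitochondrially encoded genes, the normalised table, other thresholds and filters, and leaving out named libraries. The permutation tests and figures were made in Python 3.11.15 with scipy 1.17.1, pandas 2.3.3, numpy 2.4.6 and matplotlib 3.10.9.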

Additional observations from a re-analysis of the deposited data

Results flagged for a closer look

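In spleen, Ucp1 was 1.38 CPM (10 counts) in library 8, against at most 0.273 CPM in the other 6 libraries. The gap to the next library was 0.801 of the organ's range, above Dixon's 95% critical value for 7 libraries. The same library had a count of 0 for Adipoq, Lep and Retn, 0.413 CPM of Cfd, 0.138 CPM of Plin1 and 0.275 CPM of Cidec. With normally spread values chance flags about 1 in 20 such groups, and 7 members were examined in spleen. Ucp1 had a count of 0 in 5 of the 7 spleen libraries, so that rate need not hold for it. The organs with 14 or 15 libraries are too large for this rule and were not examined.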

How the results depend on the processing

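Of 162 recomputed values, 119 stayed within 1.5 times and 43 moved by more, and the cause was not tested. Pairs of members at a rho of 0.8 changed in muscle (2) to 4 on CPM without mitochondrially encoded genes, 4 on the authors' normalised table and 1 without the library highest in Adipoq. In heart (2) they changed to 1 on the normalised table and 1 without that library. In kidney (7) they changed to 3 above the gap, and to 8 without the library high in Cyp11a1. Without the libraries that carried other tissue they changed in spleen (11) to 6 over 5 libraries. At a pseudocount of 0.1 CPM, pairs at a Pearson r of 0.8 changed in muscle (7) to 12 and in kidney (8) to 13. The percentage of genes at 0.8 with Adipoq came without a filter on low values to 1.06 in kidney, 0.134 in small intestine and 0.333 in muscle, and by Pearson r to 0.97 in kidney and 0.326 in small intestine. With Ucp1 in kidney it came to 0.222 at a mean of 5 CPM, 0.184 by Pearson r and 0.183 above the gap. Another 26 changes are in numbers of libraries at or above 0.5 or 5 in place of 1 CPM. Neighbouring steps with p under 0.05 (12) numbered 11 at a pseudocount of 0.1 CPM, 18 with TMM scaling, 14 without mitochondrially encoded genes, where the order of some organs also changed, 12 without the small intestine libraries over 50% mitochondrially encoded, and 14 without the libraries that carried other tissue. Among the tests beside Adipoq, Ucp1 in small intestine and kidney came to permutation p = 0.0163 at a pseudocount of 0.1 CPM, and in muscle and spleen to exact permutation p = 0.0330 without mitochondrially encoded genes.

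No paired analysis was possible because the table's columns carry no replicate number from the labels. Levels under 0.453 CPM are at or below 3 counts in the shallowest library, so heart, liver and brain limit what can be said of Adipoq, Lep, Retn and Ucp1. Genotypes within an organ are unnamed and cannot be told apart from other differences between libraries.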
